A study of Hydra vulgaris with 99 samples.

Results

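Mid-gastric tissue of the freshwater polyp Hydra vulgaris was compared with whole intact animals by polyA RNA sequencing. The mid-gastric libraries were the 6 taken at 0 h from the tips on both sides of a cut at the 50% level of the body axis, out of 99 libraries in the series, and the controls were 3 libraries of intact animals. The members were chosen by their labels and not by any measured value. All animals were of the strain Jussy, received 3 feedings per week and had no treatment. Tissue of 20 to 25 animals was pooled per library, with 3 replicates per group, lettered A, B and C.

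At the 50% cut, the lower part of the animal regenerates a head and the upper part regenerates a foot. The apical-regenerating tips (n = 3) are therefore the top of the lower part, and the basal-regenerating tips (n = 3) are the bottom of the upper part. Further groups used below were homeostatic heads (apical regions), homeostatic feet (basal disk with the lower peduncle) and the 0 h tips of animals decapitated at the 80% level, called upper column here (n = 3 each). Along the axis the order was head, upper column, basal-regenerating tip, apical-regenerating tip, foot. Every group except the intact animals was cut from the body before extraction, so position and dissection cannot be told apart in a comparison with intact animals alone.

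Hydra is a tube of epithelial cell layers with a head of hypostome and tentacles at its apical end and an adhesive basal disk at its basal end. Epithelial and interstitial stem cells proliferate in the body column, and their progeny are displaced towards the ends, where they differentiate terminally, for example into tentacle battery cells or mucus-secreting cells of the basal disk. The gastric column has long been studied because either cut surface can rebuild the missing end. A whole animal contains head, column and foot, so its RNA is a mixture of all of them.

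The features of the count table were transcript sequences, grouped into loci by their identifiers. No source used here pairs these identifiers with gene names, so the tissue could not be checked with named markers and no functions are given. Sequences that were high in heads, feet or upper column served in place of markers. The 9 libraries compared held 26939203 to 35846180 reads, and the 99 libraries of the series held 26401348 to 54273942. Of 79774 sequences in 25879 loci, 54272 sequences in 20612 loci passed a filter on low counts and were tested. Replicates of heads, feet, upper column and intact animals correlated with their own group at a mean Pearson r of 0.953 to 0.966 across 26040 sequences. The mid-gastric tips stood at 0.870 to 0.934, and both letter A tips were lowest on their side, at 0.870 for apical-regenerating and 0.899 for basal-regenerating tips. Tips of one letter correlated at 0.953 to 0.967 across the cut, whereas tips of different letters on opposite sides averaged 0.871 to 0.924. Same-letter tips were therefore close to each other and are not independent replicates. These correlations are across sequences, which are not independent of each other.

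Among sequences that differed by at least 2-fold, most were lower in mid-gastric tissue than in intact animals. Of the 54272 sequences, 2264 (4.17%) were lower and 272 (0.501%) were higher in mid-gastric tissue, 2536 (4.67%) in all. A sequence was called at an adjusted p under 0.05 in the edgeR quasi-likelihood test and a change of at least 2-fold. The lower sequences lay in 1573 loci and the higher sequences in 262. The median log2 fold change of all sequences tested was -0.03. The imbalance was tied to the size of the change: with no minimum on it, 3013 sequences were higher and 3786 lower by the same test.

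Among these called sequences, the median decrease was larger than the median increase. The median log2 fold change was -2.34 among the lower sequences, a 5.07-fold difference, and 1304 of them (57.6%) differed by at least 4-fold. Among the higher sequences the median was 1.44, a 2.71-fold difference, and 87 of 272 (32.0%) reached 4-fold. For sequences with at most 3 reads in all tips or all intact libraries together, folds were recomputed from summed reads, with a floor of 3. The medians were then -2.33 and 1.44. The median level of the lower sequences was 0.495 CPM (reads scaled to library size) in mid-gastric tissue and 2.71 CPM in intact animals. For the higher sequences it was 3.09 CPM and 0.984 CPM.

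All 6 tips lay below all 3 intact libraries for 1904 of the 2264 lower sequences (84.1%), against 7.52% of all sequences tested. All 6 tips lay above the intact libraries for 153 of the 272 higher sequences (56.3%), against 5.14% of all sequences tested. The groups overlapped for the rest, so a larger share of the increases than of the decreases had at least 1 tip within the range of the intact animals. These shares describe called sequences and are not a separate test.

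**Figure D1:**
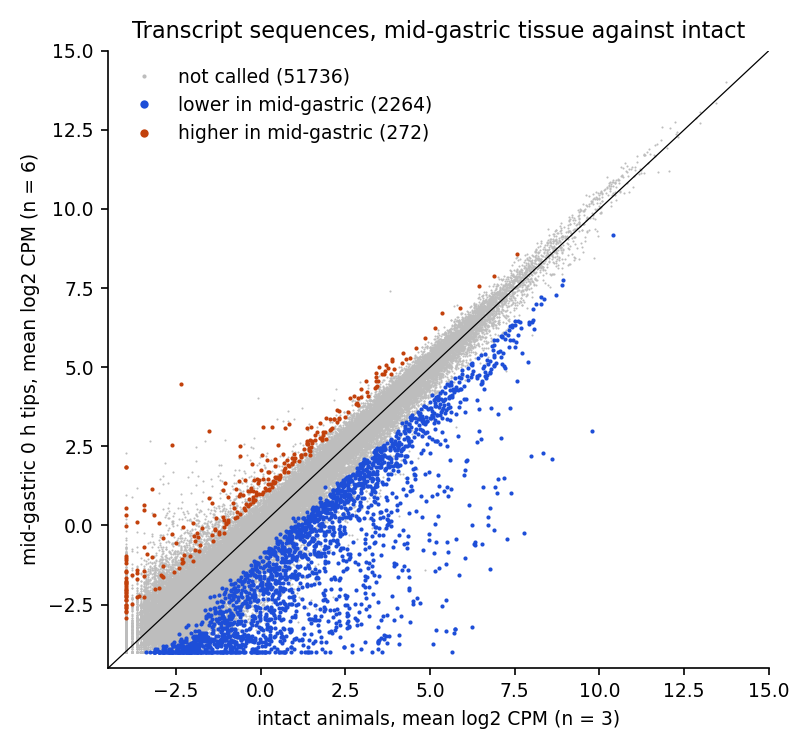
Mean log2 CPM of each of the 54272 sequences in the 6 mid-gastric 0 h tips (vertical axis) against the 3 intact libraries (horizontal axis), with the line of equal level. The 2264 sequences called lower (blue) lie below the line and the 272 called higher (orange) above it.

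The lower sequences made up 3.69% ± 0.24 of the reads of intact animals (SD, n = 3) and 1.04% ± 0.21 of the reads of mid-gastric tips (n = 6). Their share was larger at both ends of the animal, with 9.19% ± 0.75 in heads and 5.58% ± 1.20 in feet (n = 3 each), and was 2.14% ± 0.34 in upper column. The higher sequences took a small share everywhere, with 0.299% ± 0.081 of the reads of mid-gastric tips and 0.128% ± 0.008 of those of intact animals. Their share was 0.190% ± 0.037 in upper column, 0.133% ± 0.020 in feet and 0.0515% ± 0.0045 in heads. Within the tips it followed the replicate letter, at 0.410% and 0.381% in letter A, 0.274% and 0.293% in letter B and 0.213% and 0.222% in letter C (apical-regenerating first). In pooled tissue, fewer cells of a type and less RNA per cell cannot be told apart.

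The count of higher sequences depended on the libraries and the method. It was 464 by DESeq2, 451 by the newer quasi-likelihood method of edgeR and 132 with the 18 libraries of the 6 groups alone. Without both letter A tips, 110 sequences were higher and 2018 lower. Without the apical-regenerating tip A alone 133 were higher, and without the basal-regenerating tip A alone 149. Without both letter C tips 509 were higher and 2586 lower. When any one library or any one letter pair was left out, the increases ranged from 110 to 509. The decreases ranged less widely in these fits, from 1781 to 2586. When the counts of same-letter tips were summed, so that 3 mid-gastric samples met 3 intact ones, 238 sequences were higher and 1610 lower. With the 9 libraries compared fitted alone, so that only their own spread entered, 83 were higher and 1193 lower. In both fits the decreases lay below the range given above, and with the 9 libraries the increases did too.

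Whether the sequences lower in mid-gastric tissue belonged to the ends of the animal was asked in libraries that enter neither side of the comparison. In head against foot, 1307 of the 2264 lower sequences (57.7%) were called higher in head, against 7.44% of all sequences tested. A further 329 (14.5%) were called higher in foot, against 7.01% of all tested. The remaining 628 (27.7%) were called in neither direction. The foot sequences among them had the deepest decreases in mid-gastric tissue, with a median log2 fold change of -3.69, compared with -2.17 for the head sequences and -2.30 for the rest.

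The 628 lower sequences not called between head and foot were mostly higher at both ends than in mid-gastric tissue. Of these, 581 were called higher in head than in mid-gastric tissue, against 14.4% of all tested, and 528 higher in foot, against 7.58%. Both held for 508 and neither for 27. Over all tested, the share for both cannot exceed the 7.58% for foot, and the share for neither was not taken. The 628 were chosen as low in these same mid-gastric libraries, which these counts use a further time, so they only describe where the reads lay.

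The upper column is also body column but was cut at another level. Of the 2264 lower sequences, 1407 (62.1%) were called lower in upper column than in the mean of head and foot, against 7.6% of all tested, and 95 (4.20%) were called higher, against 6.66%. In the 48 h tips after decapitation, where a head is forming, 1071 of the lower sequences (47.3%) had risen relative to the 0 h tips, against 3.58% of all tested. At 2 h after decapitation 11 (0.486%) had risen, against 0.232%, and 2 (0.0883%) had fallen, against 0.0221%.

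The sequences higher in mid-gastric tissue gave a different picture. In head against foot, 5 of the 272 (1.84%) were higher in head, below the 7.44% of all tested, and 90 (33.1%) were higher in foot, above the 7.01% of all tested. In upper column against the mean of head and foot, 114 (41.9%) were called higher, against 6.66%, and 3 (1.10%) lower, against 7.6%. At 48 h after decapitation 55 (20.2%) had fallen, against 1.67% of all tested, and 0 had risen, against 3.58%. At 2 h after decapitation 0 of the 272 were called in either direction by edgeR. Of all tested, only 0.232% had risen and 0.0221% had fallen by then, so this count does not set the 272 apart.

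**Figure D2:**
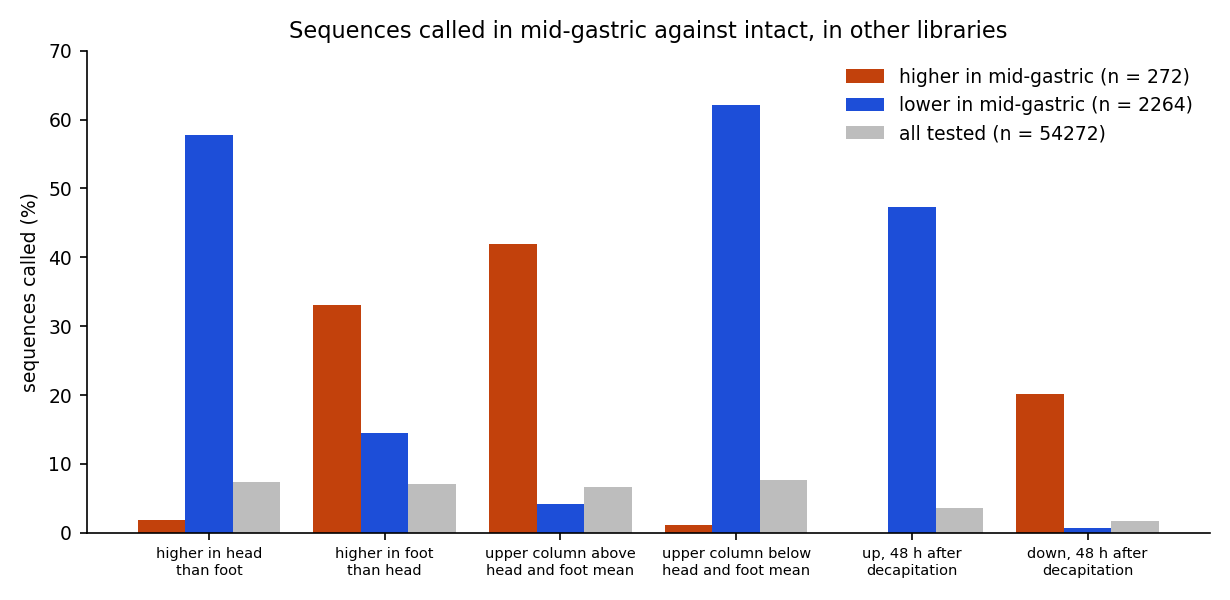
Percent of sequences called in contrasts that use neither mid-gastric nor intact libraries, for the 272 sequences higher in mid-gastric tissue (orange), the 2264 lower (blue) and all 54272 tested (grey). The tallest bars are those of the lower sequences in upper column below the head and foot mean (62.1%) and in head above foot (57.7%).

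The same question was asked from lists of sequences high at the ends, and for the foot the answer turned with the list. Heads had 2663 sequences above both foot and upper column, tested together. Of these, 1165 (43.7%) were called lower in mid-gastric tissue than in intact animals and 0 higher, against 4.17% and 0.501% of all tested. Their median log2 fold change in mid-gastric tissue against intact was -1.05. In single libraries, the list's median log2 ratio to the mean of intact animals was -1.17 to -1.02 in apical-regenerating tips and -0.97 to -0.94 in basal-regenerating tips. It was -0.25 to 0.21 in the intact libraries themselves and -0.99 to -0.87 in feet. The 6 tips thus lay below all intact libraries and close to the feet.

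Feet had 974 sequences above both head and upper column. Of these, 313 (32.1%) were called lower in mid-gastric tissue and 1 higher, and the median log2 fold change was -0.77. The list's median was -0.71 to -0.47 in apical-regenerating tips and -0.93 to -0.81 in basal-regenerating tips, so that the 2 sides of the cut did not overlap. It was -1.12 to -0.96 in upper column, below every mid-gastric tip. These foot sequences were thus nearer to the intact level in the tip that lay nearer the foot.

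The broader lists take head against foot alone, whatever the level in the column. The 4038 sequences higher in head had a median log2 fold change of -0.83 in mid-gastric tissue, with 1307 called lower and 5 higher. The 3805 sequences higher in foot had a median of 0.20, the opposite sign to the narrower foot list, although more were called lower (329, 8.65%) than higher (90, 2.37%). In single libraries the median of these 3805 was 0.13 to 0.29 in the 6 tips, -0.09 to 0.11 in intact animals, 0.01 to 0.14 in upper column, 0.24 to 0.41 in feet and -1.96 to -1.67 in heads. The direction given for foot sequences as a whole thus depends on whether they were also required to be above upper column.

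Upper column had 773 sequences above both head and foot (1.42% of those tested). In mid-gastric tissue 54 (6.99%) were called higher than in intact animals and 10 lower, against 0.501% and 4.17% of all tested, and the median log2 fold change was 0.47. The list's median was 0.51 to 0.65 in basal-regenerating tips and 0.29 to 0.40 in apical-regenerating tips, compared with 0.54 to 0.65 in upper column. It was -1.25 to -1.04 in feet and -1.95 to -1.46 in heads. The basal-regenerating tips overlapped with upper column and the apical-regenerating tips lay below both.

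**Figure D3:**
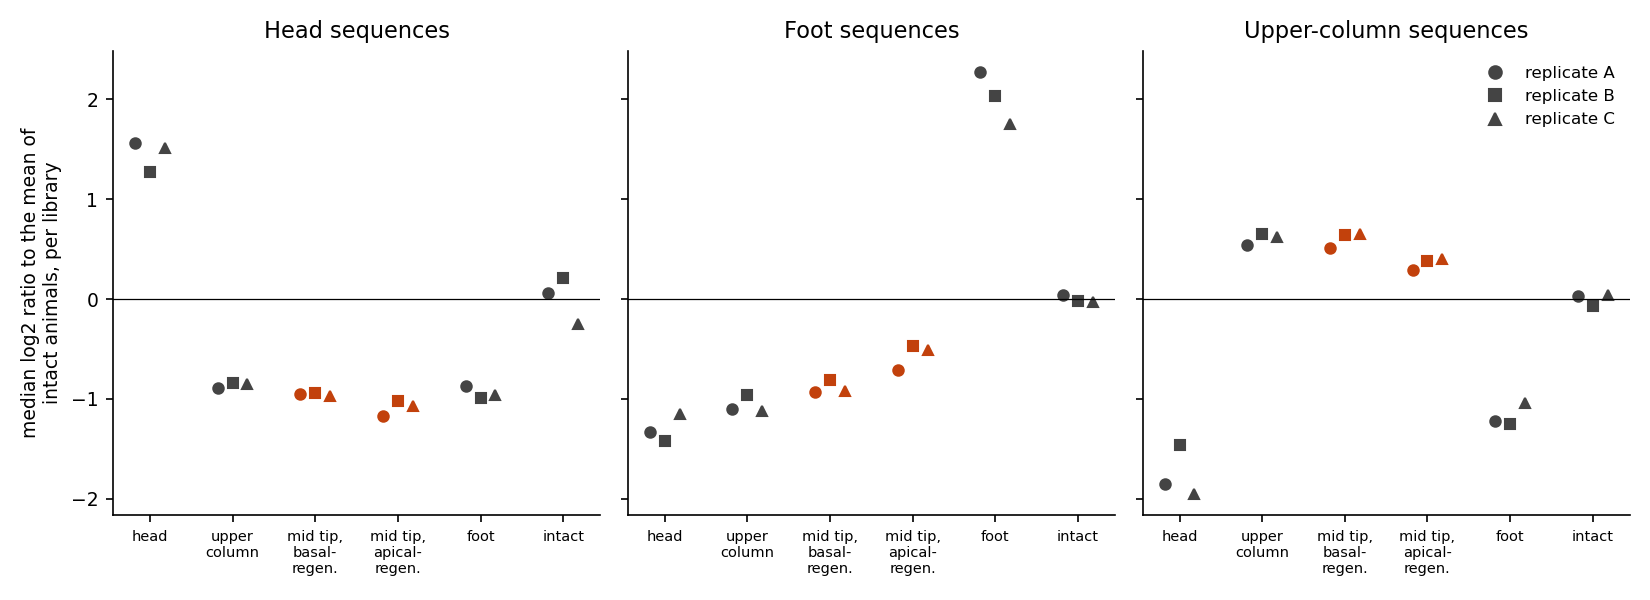
Median log2 ratio of each library to the mean of the 3 intact libraries for sequences above the other 2 of head, foot and upper column in head (2663), foot (974) and upper column (773), with mid-gastric tips in orange, other groups in grey and the replicate letter as the symbol. "Regen." stands for regenerating. All 6 tips lie below 0 for these head and foot lists and above 0 for upper-column sequences, and each list is high in the region that defined it. For the broader list of 3805 sequences higher in foot than head, not drawn, all 6 tips lie above 0 (0.13 to 0.29).

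To separate what mid-gastric tissue has or lacks beside all other regions, each sequence was required to differ from several groups at once, with the largest of its p-values adjusted over all sequences. Against intact animals, heads and feet together, 87 sequences (0.16% of those tested, in 80 loci) were higher in mid-gastric tissue and 710 (1.31%, in 554 loci) lower. With no minimum on the fold change the balance turned, to 1972 higher and 1494 lower. The 87 had median levels of 7.40 CPM in basal-regenerating and 6.54 CPM in apical-regenerating tips, and of 3.99 CPM in upper column, 2.46 CPM in intact animals, 1.41 CPM in feet and 0.720 CPM in heads. The 87 became 167 by the newer quasi-likelihood method and 41 with the 18 libraries alone. Without both letter A tips 20 were higher, without both letter C tips 209, and without both letter B tips 141. The number also changed by more than 1.5 times when a single tip or intact library was left out: 39 without the apical-regenerating tip A, 44 without the basal-regenerating tip A, 44 without intact B, 134 without the apical-regenerating tip C and 136 without the basal-regenerating tip C.

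When upper column was added as a further region, 0 sequences were higher in mid-gastric tissue by edgeR's older quasi-likelihood test. At an unadjusted p under 0.05 with at least 2-fold in each comparison there were 70. DESeq2 called 3, the newer quasi-likelihood method of edgeR 10 and limma on the deposited normalized values 0. Without both letter C tips edgeR called 12. Whether any increase sets the mid-gastric level apart from the body column at the 80% level thus depended on the method.

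On the other side, 20 sequences (0.0369%, in 18 loci) were lower in mid-gastric tissue than in intact animals, head, foot and upper column alike. Their log2 fold changes against intact ranged from -1.22 to -9.29, and against upper column from -1.02 to -6.09 with a median of -2.19. The median level was 28.3 CPM in heads, 10.3 CPM in intact animals, 4.73 CPM in feet and 4.41 CPM in upper column. It was 1.81 CPM in basal-regenerating and 0.691 CPM in apical-regenerating tips. Being lower in the tips than in head and upper column is how these 20 were chosen. The mean level was lower in upper column than in head in all 20, as a description. The 2264 lower sequences shared this as a class, with median log2 ratios to intact of 1.37 in head and -1.57 in upper column. In 16 of the 20 the mean was lower in apical-regenerating than in basal-regenerating tips. By fitted fold change this held for 1078 of the 2264. Only 5 of the 20 were called between the tips, all higher in basal-regenerating tips, against 0.181% of all tested. Among the 2264 lower sequences, 62 were called higher in basal-regenerating and 27 in apical-regenerating tips. Of the 20, 10 were called higher in head than foot and 1 higher in foot, against 7.44% and 7.01% of all tested. Among the 2264 lower sequences these shares were 57.7% and 14.5%. All 6 tips lay below all intact libraries in 16, against 7.52% of all tested and 84.1% of the 2264 lower sequences. Since the 20 were chosen as below intact animals and head, these counts describe them and are not a separate test. Without both letter C tips 67 sequences were lower than all 4 groups, and without both letter B tips 33.

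A further test asked which sequences set whole animals apart from every dissected region, since such sequences cannot be tied to a mid-gastric position. By edgeR, 0 sequences were higher in intact animals than in mid-gastric tissue, upper column, head and foot alike, and 1 (0.00184%) was lower. At an unadjusted p under 0.05 with at least 2-fold there were 4 and 94. DESeq2 gave 0 higher and 35 lower, and limma on the deposited normalized values gave 1 higher and 4 lower. The 1 called sequence had 0 reads in each intact library. Without intact library A it was not called, without intact library B 6 were lower and without intact library C 3.

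At the extreme, 46 sequences had 0 reads in all 6 tips and at least 10 reads in each intact library. A count of 0 allows up to 3 reads in a library, so these were below detection at this depth and not shown to be absent. Of these 46, 28 were called higher in head than foot, against 7.44% of all tested, and 5 higher in foot, against 7.01%. Only 5 sequences showed the reverse, with 0 reads in each intact library and at least 10 in each tip. How many of these 5 were called in head against foot was not counted.

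Most loci hold several sequences, 85.7% of the sequences tested lying in such loci, so reads can move between sequences of one locus. With counts summed per locus, 1417 of 20883 loci (6.79%) were called, 98 higher (0.469%) and 1319 lower (6.32%). Of the 1573 loci with a lower sequence, 1094 were lower as a whole. Of the 262 loci with a higher sequence, 55 were higher as a whole. Both directions occurred within 21 loci, of which 5 were called as a whole.

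The largest increases of sequences were mostly not called at the locus. A rise of at least 16-fold occurred in 48 sequences, of which 45 lay in loci with several sequences and 38 had at most 3 reads in the intact libraries together. The locus as a whole was called higher for 3 of the 48, and the median log2 fold change of their loci was 0.14. A fall of at least 16-fold occurred in 659 sequences, and the locus was called lower for 531 of them (80.6%) with a median of -4.27. The fitted folds of sequences at or near 0 reads depend on the prior count of the model and are not measured folds.

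At locus level the same shares were taken over loci. Of the 1319 lower loci, 58.5% were higher in head than foot, against 10.3% of all loci, and 20.2% higher in foot, against 9.33%. In upper column 71.5% of them were below the head and foot mean, against 11.5%, and 57.2% had risen 48 h after decapitation, against 6.38%. Of the 98 higher loci, 43.9% were above the head and foot mean in upper column, against 6.91%, and 19.4% had fallen 48 h after decapitation, against 2.1%. Against intact, head and foot together, 43 loci were higher and 481 lower. With upper column added, 0 were higher and 20 lower by edgeR.

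**Figure D4:**
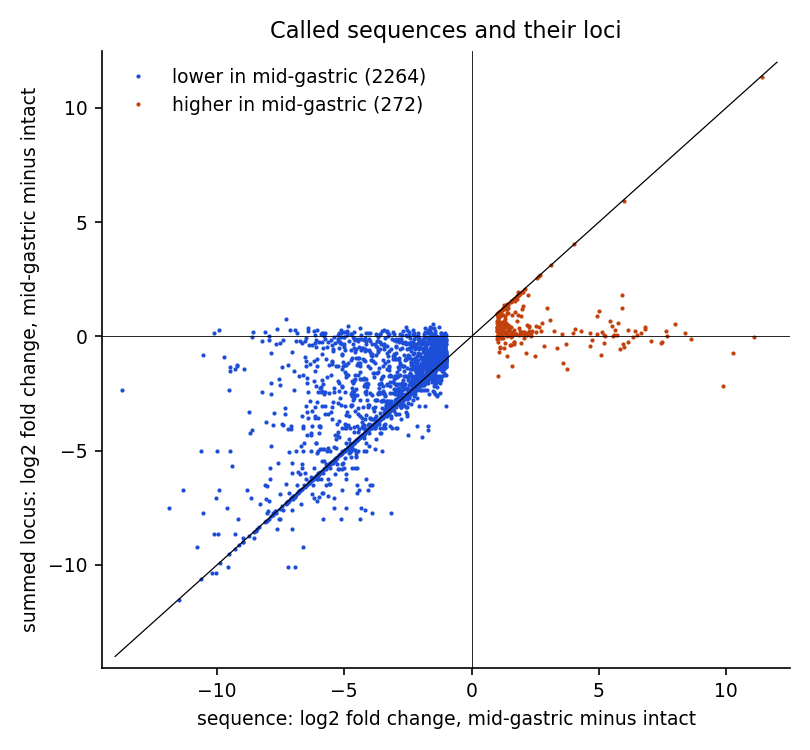
Log2 fold change of the summed locus (vertical axis) against that of the sequence (horizontal axis), mid-gastric minus intact, for the 2264 lower (blue) and 272 higher (orange) sequences, with the line of equality. Many of the lower sequences lie along the line, whereas the 48 that rose by at least 16-fold have a median of 0.14 on the vertical axis.

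The 4 sequences below are described by name, chosen among 92 candidates (9 higher, 83 lower) that were abundant and did not overlap between groups. The SE given for each comes from the test, as the ratio of the log2 fold change to the root of its F value. The first, seq11560_loc05375_vl0029467, had the largest rise of those above intact, head and foot together. It had 159.9, 121.7 and 96.1 CPM in apical-regenerating tips A, B and C and 55.6, 133.8 and 99.2 CPM in basal-regenerating tips. Intact libraries had 40.4, 35.4 and 47.3 CPM, below every tip. Levels were 63.3 ± 23.6 CPM in upper column, 6.01 ± 4.41 CPM in feet and 4.15 ± 0.57 CPM in heads (SD, n = 3 each).

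This sequence was 2.68-fold higher in mid-gastric tissue than in intact animals, at 111 ± 35.9 CPM (n = 6) against 41.0 ± 5.95 CPM (n = 3), or 1.42 on the log2 scale (SE 0.37, adjusted p = 0.00407 by edgeR). Against head and foot its log2 fold changes were 4.73 and 4.19 (edgeR adjusted p = 1.64e-14 and 2.46e-12). Against upper column it was 0.80 (edgeR adjusted p = 0.422), so a difference between the column levels was not established. At 48 h after decapitation its log2 fold change against 0 h was -1.67 (edgeR adjusted p = 0.00248). It is 1 of 2 sequences of its locus, and the summed locus was higher by 1.23 (log2, edgeR adjusted p = 0.000349).

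The second, seq60784_loc20893_tr0595354, is 1 of 11 sequences of its locus, of which 5 were tested. It had 283, 219 and 184 CPM in apical-regenerating tips A, B and C and 118, 218 and 161 CPM in basal-regenerating tips. Intact libraries had 92.0, 81.0 and 88.8 CPM, again below every tip, though the basal-regenerating tip A was near them. Levels were 103 ± 38.4 CPM in upper column, 39.7 ± 12.4 CPM in feet and 5.15 ± 0.63 CPM in heads.

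Its log2 fold change against intact was 1.16 (SE 0.29, edgeR adjusted p = 0.00305), at 197 ± 56.6 CPM (n = 6) against 87.3 ± 5.66 CPM. It too was higher than in head and foot, with log2 fold changes of 5.24 and 2.29, and was not called against upper column (0.91, edgeR adjusted p = 0.142). Its log2 fold change at 48 h after decapitation was -1.68 (edgeR adjusted p = 9.80e-05). The summed locus was higher by 1.03 (edgeR adjusted p = 0.00338).

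The third, seq06030_loc03115_tr0496467, had the largest fall among candidates that were higher in head than foot. It stood at 369 ± 33.1 CPM in heads, 291 ± 99.8 CPM in upper column, 62.4 ± 2.57 CPM in basal-regenerating tips, 9.00 ± 2.18 CPM in apical-regenerating tips and 1.04 ± 0.18 CPM in feet (n = 3 each). Intact animals had 192 ± 40.5 CPM. Its mean level was lower at each step from head to foot, and no tip of either side came near the intact range of 153 to 233 CPM.

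The log2 fold change of mid-gastric tissue against intact was -3.02 (SE 0.34, edgeR adjusted p = 5.16e-11), made of -4.41 for apical-regenerating and -1.62 for basal-regenerating tips. Between the tips it was -2.79 (edgeR adjusted p = 2.63e-05), apical-regenerating lower. Mid-gastric tissue lay below upper column by a log2 fold change of -3.62 (edgeR adjusted p = 1.66e-12) and above foot by 4.51 (edgeR adjusted p = 2.96e-12). It is 1 of 4 sequences of its locus, and the summed locus changed by -2.97 (edgeR adjusted p = 1.18e-11).

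The last, seq15654_loc06900_vl0091509, had the largest fall among candidates that were higher in foot than head. Feet A, B and C stood at 1568, 1408 and 773 CPM, and intact libraries at 148.6 ± 10.2 CPM. Apical-regenerating tips had 33.1, 29.4 and 44.6 CPM and basal-regenerating tips 28.0, 27.0 and 27.7 CPM. Upper column had 27.3 ± 1.54 CPM and heads 23.3 ± 2.27 CPM, so all regions but the foot lay far below the intact animals.

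Its log2 fold change against intact was -2.24 (SE 0.21, edgeR adjusted p = 5.04e-14), at 31.6 ± 6.70 CPM (n = 6). Against foot it was -5.32 (edgeR adjusted p = 4.38e-31), whereas against head it was 0.43 (edgeR adjusted p = 0.123) and against upper column 0.20 (edgeR adjusted p = 0.83). It is 1 of 7 sequences of its locus, 5 of them tested, and the summed locus changed by -2.17 (edgeR adjusted p = 1.23e-14).

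**Figure D5:**
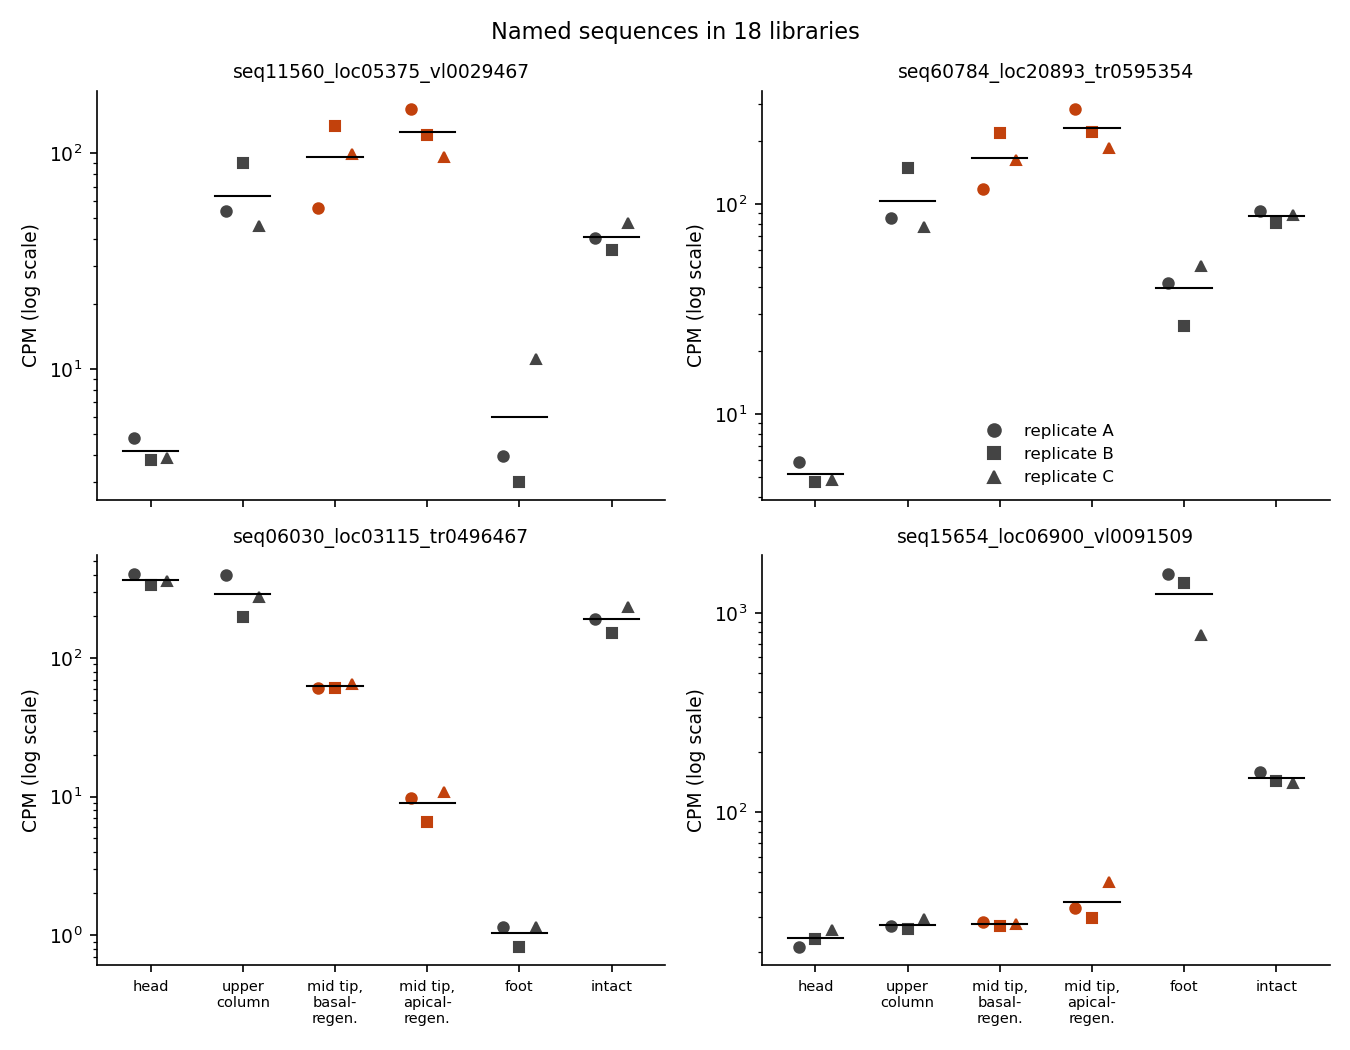
CPM on a log axis of the 4 named sequences in 18 libraries of 6 groups, with a line at each group's mean, the replicate letter as the symbol and mid-gastric tips in orange. "Regen." stands for regenerating. By group mean, the first pair is highest in the tips, the third is lower at each step from head to foot, and the last is highest in foot (1249 ± 420 CPM). Single libraries of upper column overlap with the tips in the first pair and with the heads in the third.

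Taken side by side, both tips of the cut were lower than intact animals in much the same number of sequences. More sequences were called higher in basal-regenerating than in apical-regenerating tips. Apical-regenerating tips had 157 higher (0.289%) and 1749 lower (3.22%), and basal-regenerating tips 326 higher (0.601%) and 1812 lower (3.34%). These comparisons share the intact libraries. Without the basal-regenerating tip A its 326 became 113, and without the basal-regenerating tip C 569. Without the apical-regenerating tip A its 157 became 64, and without the apical-regenerating tip C 290.

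Compared directly, the tips differed in 147 sequences (0.271%), 49 higher in apical-regenerating and 98 higher in basal-regenerating tips. Because same-letter tips deviated together, the letter was also entered as a block. Over 18 or 99 libraries such a block gives each letter the same effect in every group. Only the block over the 6 tips alone fits a letter effect of the tips by themselves. The count was 159 with a replicate block over all 99 libraries, 78 with a replicate block over the 18 libraries of the 6 groups and 0 with a replicate block over the 6 tips alone, where 12 were called without it. In the 6 tips alone with the block, 2174 of 37593 sequences had an unadjusted p under 0.05, where chance alone gives a share of about 0.05. DESeq2 called 310 sequences over all libraries. Without both letter C tips 66 were called, without both letter B tips 77 and without the apical-regenerating tip C alone 97.

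The calls between the tips were then counted within the lists, beside 0.0903% of all sequences tested that were higher in apical-regenerating tips and 0.181% higher in basal-regenerating tips. Of the 974 foot sequences, 35 were higher in apical-regenerating tips and 1 in basal-regenerating tips, and of the broader 3805 sequences higher in foot than head, 38 and 1. Of the 2663 head sequences, 2 were higher in apical-regenerating and 16 in basal-regenerating tips, and of the broader 4038 sequences higher in head than foot, 3 and 83. Of the 773 upper-column sequences, 0 were higher in apical-regenerating and 29 in basal-regenerating tips by edgeR. Called foot sequences were thus mostly higher in the tip nearer the foot, and called head and upper-column sequences in the tip nearer the head.

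The medians of whole lists, apical-regenerating minus basal-regenerating on the log2 scale, were small except for the narrower foot list. The median difference was 0.42 for the 974 foot sequences and -0.01 for the 3805 higher in foot than head. It was -0.08 for the 2663 head sequences, -0.12 for the 4038 higher in head than foot and -0.25 for the upper-column sequences, compared with 0.01 over all sequences tested.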

How the data were processed

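The data were polyA-selected, directional TruSeq libraries from RNeasy extracts, per the labels' protocols. The authors deposited raw counts per transcript sequence, which were checked to be whole numbers, and a normalized signal made from them. Cutadapt 1.11, Salmon 0.7.2 and DESeq2 are named in the submitters' processing notes without their roles, so the deposited counts may be rounded estimates in which similar sequences share reads; the reference transcriptome is not given in the sources used here. Identifiers matched 0 keys of a RefSeq gene table of the assembly HydraT2T_AEP, and sequences of the transcripts were not used here.

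Counts of all 99 libraries entered 1 edgeR 4.0.16 model (R 4.3.3) with 1 coefficient per group (33 groups), TMM scaling, filterByExpr, which kept 99.9% of the reads, a trended dispersion and the older quasi-likelihood F-test (legacy = TRUE). Mid-gastric tissue was the mean of both tip groups. Tests were two-sided, and p-values were adjusted by Benjamini-Hochberg over all sequences. Calls needed an adjusted p under 0.05 and a log2 fold change of 1 or more in size. Tests against several groups took the largest p. Levels are CPM scaled by TMM; log2 CPM used a prior count of 2. The scripts were checked on simulated counts. DESeq2 1.42.0, limma 3.58.1 on log2 of the deposited normalized signal plus 1, data.table (1.17.8), Python 3.11.15 and matplotlib 3.10.9 were also used. Fits that left out libraries, used a replicate block over 99 libraries or summed same-letter tips kept the trended dispersion of the full fit and re-estimated the quasi-likelihood dispersion.

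Replicate letters were checked for pairing by the correlation of deviations from group means over 26040 sequences. Between the tips of the cut r was 0.70, 0.40 and 0.58 for letters A, B and C, so letters were taken to pair the tips. Between tips and intact animals r was 0.30 and 0.34 for A, 0.04 and 0.006 for B and 0.15 and 0.14 for C. For each letter this was lower than between the tips, so tips and intact animals were not taken as paired. The values for A come near the 0.40 of the tips for B, and different letters were not compared this way. A shared deviation of letter A with intact animals was therefore not excluded. The labels call replicates biological, but do not say whether same-letter tips came from the same animals. The p-values of the main fit rest on the spread within groups, estimated over all 33 groups. They do not measure the spread of the tips and intact animals alone. Tips correlated less within their group than heads, feet, upper column and intact animals did. Depth intervals and floors cover counting error only.

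The comparison and lists were chosen with earlier results of these data known. Named sequences were called in mid-gastric against intact, had a mean log2 CPM of at least 5 over the 9 libraries, did not overlap between groups and were not among 4 sequences described earlier for head against foot. The rule took the largest rise among those above intact, head and foot (none passed with upper column added), the next largest rise at another locus, and the largest fall among sequences higher in head and among those higher in foot. Alternatives chosen after seeing the data were the 6 tips alone, with and without the replicate block.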

Additional observations from a re-analysis of the deposited data

Results flagged for a closer look

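Of 11 sets of 6 tip values checked for a sample far from the others, 1 was flagged, and chance flags about 1 in 20. In seq15654_loc06900_vl0091509, the apical-regenerating tip C stood at 44.6 CPM and the next highest tip at 33.1 CPM, and this gap was 0.652 of the range of the 6 tips. The tip remained far below the lowest intact library, at 141 CPM.

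A pair of results differed between the tips of the cut under the same contrast with intact animals, by a test of the difference itself. In seq06030_loc03115_tr0496467 the apical-regenerating tips were below the basal-regenerating tips by a log2 difference of -2.79 (edgeR adjusted p = 2.63e-05), with no overlap between 3 and 3 libraries. Over all sequences, 147 differed between the tips by edgeR over all 99 libraries, 78 with a replicate block over 18 libraries and 0 with a replicate block over the 6 tips alone.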

How the results depend on the processing

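Mid-gastric against intact gave 1985 to 3095 calls when any one library or letter pair was left out, and apical-regenerating and basal-regenerating tips each against intact gave 1523 to 2104 and 1518 to 2593. The tips against each other gave 66 to 172, mid-gastric against intact, head and foot together 608 to 1130, with upper column added 15 to 79, and intact against every dissected region 0 to 6. The median log2 fold change stayed between -0.91 and -0.72 for the 4038 sequences higher in head than foot, between 0.17 and 0.27 for the 3805 higher in foot and between 0.44 and 0.51 for upper-column sequences. Of the lower sequences, 51.9% to 61.1% were higher in head, 12.8% to 16.8% higher in foot, 54.5% to 67.1% below the head and foot mean in upper column and 39.9% to 53.6% up at 48 h after decapitation. Of the higher sequences, 35.8% to 48.9% were above the head and foot mean in upper column and 14.4% to 31.8% down at 48 h.

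Total counts of calls not named here stayed within 1.5 times the main count, and other results kept their direction (for shares, within the counting interval; for medians, within 1 SD). All 4 named sequences kept direction and call in all 24 alternatives run, with edgeR, DESeq2 or limma adjusted p from 0.000720 to 0.0433, 0.000612 to 0.0307, 3.90e-16 to 9.03e-05 and 4.19e-23 to 9.03e-05 in the order of description. For the moves below the cause was not tested, except that a fit of 9 or 18 libraries uses fewer samples, a summed locus is another unit and a removed fold minimum admits more calls. A summed fit gives no values per side, a fit of 9 libraries none against other regions and a locus fit none for lists or named sequences.

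With a replicate block over 18 libraries, tips against each other gave 78 calls, mid-gastric against all regions 9 and intact against all dissected regions 2. In this fit 57.3% of higher sequences were above the head and foot mean in upper column and 29.9% down at 48 h, and 65.8% of lower sequences were below that mean and 49.8% up at 48 h. With a replicate block over 99 libraries the last test gave 2, and 55.5%, 60.1% and 44.8% of lower sequences were higher in head, below the mean and up at 48 h. Over the 6 tips alone, tips against each other gave 12, and 0 with the replicate block. The block moved no other total by over 1.5 times. In the 18 libraries with the block, however, higher calls alone moved, to 117 for mid-gastric against intact, 56 and 136 for the apical-regenerating and basal-regenerating tips, and 32 against intact, head and foot. Without the block these were 132, 64, 153 and 41.

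Higher calls against intact were 464 by DESeq2 (283 and 491 for the tips) and 451 by the newer quasi-likelihood method (302 for the apical-regenerating tips), which gave 167 above intact, head and foot. DESeq2 gave 310 for the tips against each other, 49 for mid-gastric against all regions and 35 for intact, with lower sequences 55.4% higher in head and 12.9% higher in foot, and higher sequences 29.7% above the mean in upper column and 11.6% down at 48 h. The newer quasi-likelihood method gave 0 for intact, with 13.1% of lower sequences higher in foot, 57.3% below the mean and 41.7% up at 48 h, and 32.8% and 14.0% of higher sequences above the mean and down at 48 h. Limma gave 5 for intact, and 54.8%, 58.0% and 42.2% of lower sequences higher in head, below the mean and up at 48 h. The 18 libraries alone gave 9 and 2 for these tests, with 55.3% and 28.0% of higher sequences above the mean and down at 48 h.

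The 9 libraries alone gave 1276 calls (83 higher) for mid-gastric against intact, 849 and 838 for the apical-regenerating and basal-regenerating tips and 62 between them, with medians of -0.72 and 0.27 for sequences higher in head and in foot. There 64.6%, 17.4%, 72.8% and 60.4% of lower sequences were higher in head, higher in foot, below the mean and up at 48 h, and 68.7% and 47.0% of higher sequences above the mean and down at 48 h. Loci gave 1417, 1245 and 1317 calls against intact, 524 against intact, head and foot and 0 for intact. Summed tips gave 10 for mid-gastric against all regions and 2 for intact, with 65.2%, 71.4% and 58.3% of lower sequences higher in head, below the mean and up at 48 h. Tips at 0.5 h gave 82 for tips against each other, 2 for intact, 138 higher sequences (92 and 103 for the tips, 27 above intact, head and foot) and 60.6% of lower sequences higher in head. Without a fold minimum, calls against intact were 6799 (3013 higher), 4426 (1860 higher) and 5381 (2530 higher), those against intact, head and foot 3466 (1972 higher) and against all regions 41. The shares then were 49.5%, 10.1%, 48.7% and 33.7% of lower and 26.9% and 8.76% of higher sequences. With lists cut at 4-fold the median of sequences higher in head was -1.41. Without the filter on low counts 201 sequences were higher than intact (103 in apical-regenerating tips), and by RLE 245. Summed tips gave 473 below intact, head and foot. Depth limits low sequences most, since 28232 of 54272 tested had a mean log2 CPM under 0.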

Other observations

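Calls were spread over the range of abundance. By mean log2 CPM, 4.32% of the 28232 sequences under 0 were called lower and 0.347% higher. Of the 2376 sequences at 6 and over, 1.81% were lower and 0.210% higher. The share called higher was largest between 0 and 2, at 0.942% of 9449 sequences, where the share called lower was 5.88%.

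At 48 h after the cut, seq06030_loc03115_tr0496467 had 41.7 ± 8.84 CPM in apical-regenerating tips, compared with 9.00 ± 2.18 CPM at 0 h, and 11.2 ± 6.12 CPM in basal-regenerating tips, compared with 62.4 ± 2.57 CPM (SD, n = 3 each). At 48 h after decapitation it had 202 ± 47.2 CPM, compared with 291 ± 99.8 CPM in upper column at 0 h. These courses were not tested here, except the last, which was not called (edgeR adjusted p = 0.492).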
